A study of Bos taurus with 18 samples.

Results

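AGR2, anterior gradient 2, is a small member of the protein disulfide isomerase (PDI) family of the endoplasmic reticulum. It was chosen as the family's single member with an Ensembl identifier, ENSBTAG00000024406, paired to its symbol in the study's gene tables for added CAPG. It was read in all 18 bovine RNA sequencing samples as 1 of 36075 genes, of which 17931 were tested. Those tables list genes that the study found, by DESeq2 in these same samples, to change with added CAPG in epithelial or stromal cells. The study's tables for added PDI were not used as a source of identifiers. The direction, calls and p-values of AGR2 below are therefore not independent evidence of a response. Proteins of the PDI family form, break and rearrange disulfide bonds in proteins that enter the secretory pathway. AGR2 is best known from mucus-producing epithelia, where it helps mucins to fold, and it can also be released from the cell. PDI, the protein that was added to the devices here, is the prototype of the same family, and CAPG, the other added protein, caps the ends of actin filaments. Both are proteins that a bovine conceptus releases into the uterine lumen.

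Primary bovine endometrial epithelial cells (bEECs) and stromal cells (bESCs) were grown on opposite sides of a porous membrane in an endometrium-on-a-chip device, and the bEEC side was perfused for 24 h. The medium carried PBS as vehicle control (VC), recombinant bovine CAPG (rbCAPG) at 1 µg/mL or recombinant bovine PDI (rbPDI) at 1 µg/mL, which gave 6 groups with n = 3 samples each. The cells came from late-luteal uterine tracts of 3 animals collected at an abattoir, and a device was seeded with bEECs and bESCs of a single animal. Biological replicates 1, 2 and 3 of the labels were taken as those animals in every group. The cell types were enriched by differential trypsinization and passaged before seeding, so each sample is a bulk RNA measurement of an enriched population, in which fewer cells of a type and less RNA per cell cannot be told apart.

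The libraries held between 10072851 and 44253149 counts, and the smallest was a bESC sample with rbPDI, from animal 1. The cell type labels were set beside those marker genes that have an identifier, 6 of 20 epithelial and 6 of 18 stromal genes. Being under 80% of each list, these do not make a full check, and EPCAM, CDH1 and the keratins were not analysed here. With VC, the 6 epithelial markers summed to between 446 and 670 CPM (normalized counts scaled to a fixed library size, by edgeR with TMM factors) in bEECs and between 8.62 and 10.4 CPM in bESCs. The 6 stromal markers summed to between 10.2 and 19.6 CPM in VC bEECs and between 245 and 264 CPM in VC bESCs. A single epithelial marker, CFTR, a chloride channel, went against its label, at 0.0921 CPM in VC bEECs and 2.70 CPM in VC bESCs (means, n = 3).

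AGR2 was readily counted in every bEEC library and at most 6 times in any bESC library. In VC bEECs, AGR2 was measured at 203 CPM in animal 1, 852 CPM in animal 2 and 340 CPM in animal 3. With rbCAPG, the same animals gave 3341, 3241 and 2048 CPM, and with rbPDI they gave 2492, 3356 and 1930 CPM. All 6 protein-exposed bEEC samples lay above all 3 VC samples, and the rbCAPG and rbPDI samples overlapped each other. As a share of all counts in the library, AGR2 took between 0.0238% and 0.0782% with VC, between 0.197% and 0.297% with rbCAPG and between 0.202% and 0.304% with rbPDI. The counting error was small beside these differences. In the VC sample with the lowest share the exact binomial 95% interval ran from 0.0233% to 0.0244%, and in the rbPDI sample with the highest share it ran from 0.302% to 0.305%. Such intervals describe the counting error alone, because the libraries were amplified without molecular identifiers.

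**Figure D1:**
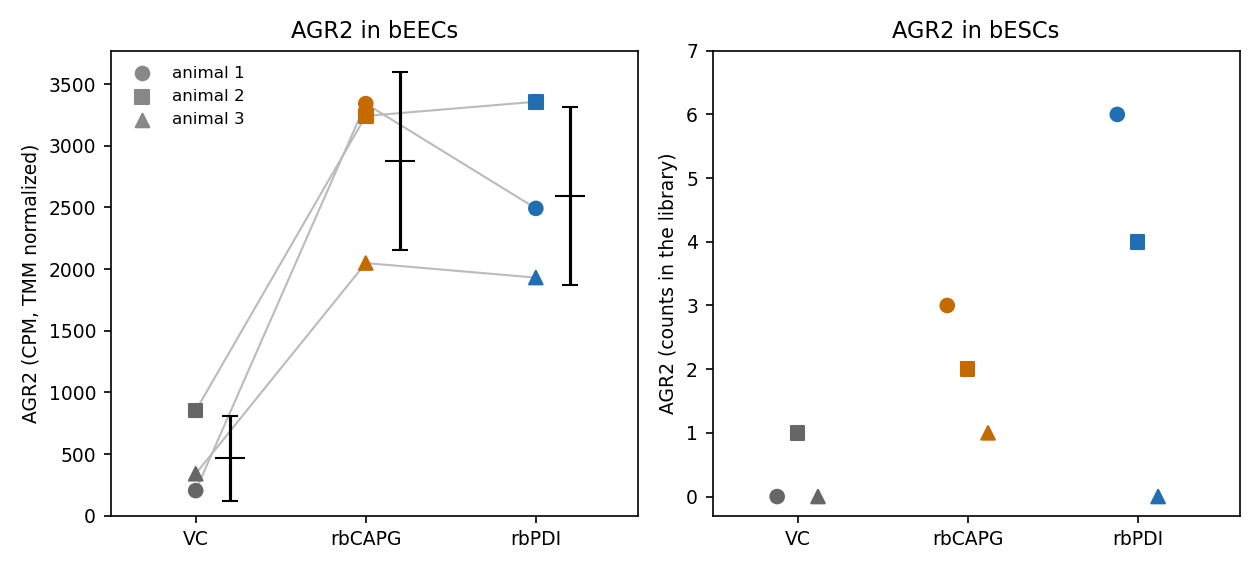
AGR2 in each of the 18 samples, by treatment (x axis) and animal (symbol), as normalized CPM in bEECs (left, with the mean ± SD of n = 3 beside the points and grey lines joining the samples of 1 animal) and as counts in the library in bESCs (right). The 3 VC bEEC samples sit between 203 and 852 CPM, below all 6 protein-exposed samples, whereas no bESC sample holds more than 6 counts.

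The first comparison asked whether AGR2 differed between bEECs exposed to rbCAPG and to VC. The mean AGR2 level of the VC samples was 465 ± 342 CPM, and that of the rbCAPG samples was 2877 ± 719 CPM (SD, n = 3 each). The fitted log2 fold change was 2.63 (SE 0.61), which is 6.19-fold with a 95% interval from 2.54 to 15.1. Higher AGR2 with rbCAPG was seen in 3 of 3 animals, at 16.4-fold in animal 1, 3.81-fold in animal 2 and 6.03-fold in animal 3. Over all tested genes, 8.72% had rbCAPG samples that all lay above all VC samples, as AGR2 did. Calling required a p-value under 0.05 after Benjamini-Hochberg adjustment and a log2 fold change of more than 1 in size. By the edgeR quasi-likelihood test AGR2 was not called, with an adjusted p-value of 0.0775. In that comparison 92 genes were called, 0.513% of those tested, and AGR2 stood at rank 224 by log2 fold change. With the animal as a block, the log2 fold change was 2.80 (SE 0.41), or 6.96-fold with an interval from 3.76 to 12.9, and AGR2 was called by edgeR with an adjusted p-value of 0.00199, among 2.19% of genes. It was also called by DESeq2, with an adjusted p-value of 0.00454, among 1.38% of genes. The study's gene tables were drawn up by DESeq2 on these samples, so that call was not independent of how AGR2 was chosen. The call therefore depended on the test and on whether the animal entered the model, whereas the fitted fold ranged little between these fits.

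For rbPDI against VC in bEECs, AGR2 was again higher in 3 of 3 animals. The mean level with rbPDI was 2593 ± 718 CPM (SD, n = 3). The log2 fold change was 2.48 (SE 0.60), which is 5.58-fold with a 95% interval from 2.30 to 13.5. Within animals 1, 2 and 3, AGR2 was 12.3, 3.94 and 5.68 times as high with rbPDI as with VC. Of all tested genes, 8.06% had rbPDI samples that all lay above all VC samples. AGR2 was not called by the edgeR test, with an adjusted p-value of 0.0728, in a comparison that called 145 genes, 0.809% of those tested. Its rank by log2 fold change was 311. With the animal as a block, the log2 fold change was 2.61 (SE 0.41), or 6.11-fold with an interval from 3.33 to 11.2, and AGR2 was called by edgeR with an adjusted p-value of 0.00219, among 2.96% of genes. DESeq2 called it with an adjusted p-value of 0.00636, among 2.01% of genes. The comparisons with rbCAPG and rbPDI share the same 3 VC samples, so they are not independent of each other.

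In the edgeR fit to all 18 samples without the block, the call turned on the VC sample of animal 2. Without that sample, the log2 fold change was 3.41 with rbCAPG (adjusted p-value 0.0329) and 3.25 with rbPDI (adjusted p-value 0.0358), and AGR2 was called in both by edgeR. Of the 6 samples in each comparison, no other one led to a call in it when left out of that fit. Leaving out samples of the other groups was not examined for these comparisons. The edgeR fits without a filter on low counts, or to bEECs alone, also called AGR2 with that sample kept.

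In a joint comparison, the mean of the rbCAPG and rbPDI groups was compared with VC. The log2 fold change of AGR2 was 2.55 (SE 0.57), or 5.88-fold, and AGR2 was called by edgeR with an adjusted p-value of 0.0385, among 0.948% of genes. That call was lost on leaving out any 1 of the 9 bEEC samples except the VC sample of animal 2, with adjusted p-values by edgeR from 0.0236 to 0.246 over these fits. With the animal as a block, the log2 fold change was 2.71 (SE 0.39) and the edgeR adjusted p-value was 0.000947. An exact two-sided permutation test on the log2 CPM of the 6 protein-exposed and 3 VC bEEC samples gave a difference of 2.78 and p = 0.0238, the smallest value that its 84 arrangements can give. These arrangements exchange samples between animals, and with exchange only within an animal the 27 arrangements gave an exact permutation p = 0.0741, again the smallest they can give. With 3 samples against 3, such a test cannot give a p-value under 0.1.

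AGR2 was next compared between the added proteins, which were used at the same dose and time. In bEECs, the level with rbPDI relative to rbCAPG was 0.746 in animal 1, 1.04 in animal 2 and 0.942 in animal 3. The log2 fold change was −0.15 (SE 0.57) and the ratio was 0.901, with a 95% interval from 0.390 to 2.08. The edgeR adjusted p-value was 1, and 0 genes (0%) were called in this comparison, against 103 genes at an unadjusted p-value under 0.05. DESeq2 called 0 genes without the animal as a block and 5 with it. With the animal as a block, the interval of the ratio ran from 0.499 to 1.55. AGR2 with rbPDI and with rbCAPG therefore did not differ beyond the spread between samples, and the intervals leave room for a difference of either sign. AGR2 was found through tables of genes that changed with rbCAPG. Such a choice favours high values with rbCAPG more than with rbPDI, so the ratio is not free of it.

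**Figure D2:**
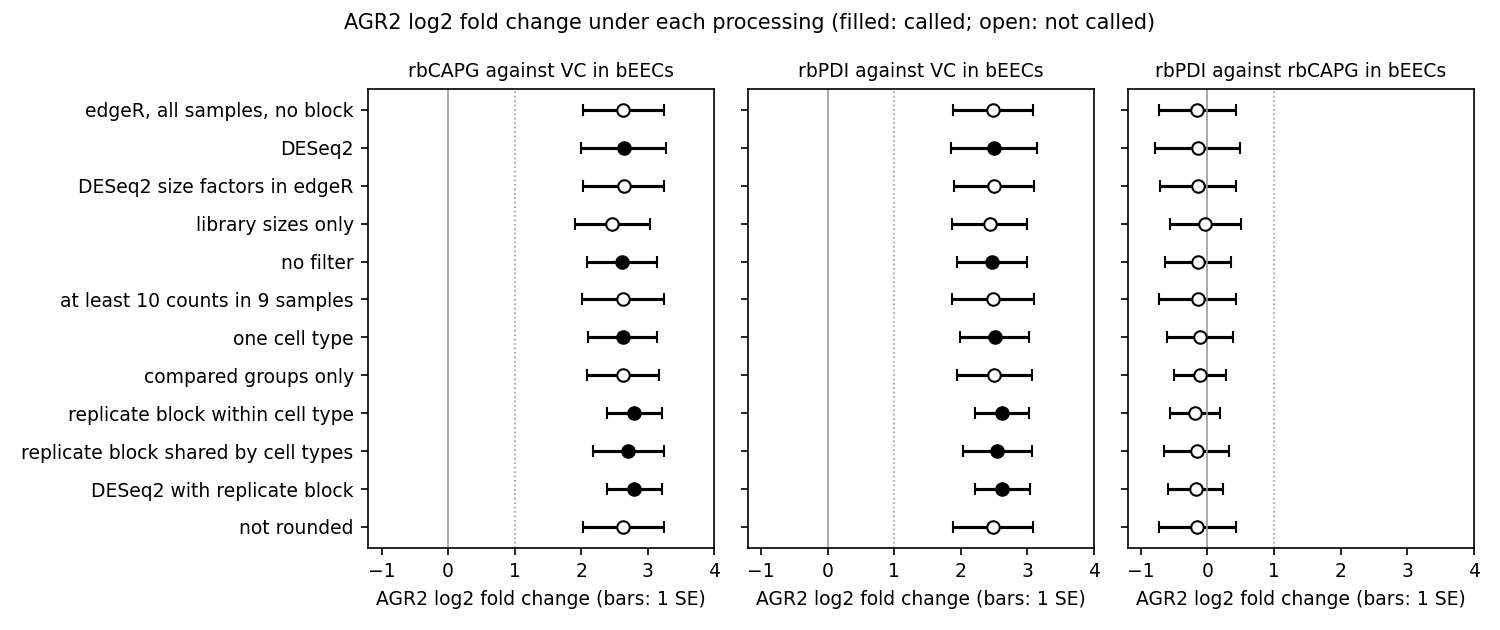
Log2 fold change of AGR2 in bEECs (x axis, with bars of 1 SE) under each way of fitting the data (y axis), for rbCAPG against VC, rbPDI against VC and rbPDI against rbCAPG. Filled points passed the call and open points did not, the solid line marks no change and the dotted line a log2 fold change of 1; both comparisons with VC stay above the dotted line in each fit, while the comparison between the proteins stays close to 0.

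The spread of AGR2 between animals was wide with VC and narrower with either protein. The highest VC sample was 4.19 times the lowest, against 1.63 times with rbCAPG and 1.74 times with rbPDI. On the log2 CPM scale the SD was 1.05 with VC, 0.40 with rbCAPG and 0.40 with rbPDI, and these SDs rest on 3 samples each and were not tested against each other. Animal 2 lay above its group mean in all 3 bEEC groups, by 1.13, 0.21 and 0.41 on the log2 scale with VC, rbCAPG and rbPDI. Animal 3 lay below it in all 3, with deviations of −0.19, −0.46 and −0.39, and animal 1 was low with VC (−0.94) but near or above the mean with rbCAPG (0.25) and rbPDI (−0.02). The biological coefficient of variation that edgeR estimated for AGR2 was 0.495, larger than that of 81.2% of tested genes, whose median was 0.306.

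In bESCs, AGR2 was counted rarely. The VC libraries of animals 1, 2 and 3 held 0, 1 and 0 AGR2 counts, the rbCAPG libraries held 3, 2 and 1, and the rbPDI libraries held 6, 4 and 0. The groups overlapped, and 3 of the 9 libraries held no AGR2 count. A count of 0 allows a share of up to 3 counts, which is 1.46e-05% and 6.97e-06% of the libraries of animals 1 and 3 with VC and 6.92e-06% of that of animal 3 with rbPDI. Pooled over the libraries of a group, AGR2 was at 0.00938 CPM without TMM factors with VC (exact 95% Poisson interval from 0.000238 to 0.0523), 0.0494 with rbCAPG (0.0181 to 0.108) and 0.103 with rbPDI (0.0495 to 0.190). No fold is given for rbCAPG against VC, since neither group held a library with more than 3 counts. For rbPDI against VC the ratio of pooled, normalized counts was 11.7 with a counting interval from 1.66 to 506, and it rests on 10 counts against 1. The 6 counts of animal 1 were in the smallest of the 18 libraries. Without that library the ratio was 5.27 with a counting interval from 0.521 to 259, which spans 1.

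AGR2 was not called in any bESC comparison by edgeR. The adjusted p-value was 1 for rbCAPG against VC, where 0.0948% of genes were called, 0.915 for rbPDI against VC, where 0.178% were called, and 1 for rbPDI against rbCAPG, where 0% were called (319 genes under 0.05 before adjustment, with 0 called by DESeq2, or 46 with the animal as a block). With the animal as a block, the edgeR adjusted p-value for rbPDI against VC was 0.314. A change in AGR2 with either protein was thus not detectable in bESCs at this depth.

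Whether the response of AGR2 differed between the cell types was tested as an interaction. The edgeR adjusted p-value was 1.00 for rbCAPG, in a test that called 0.0669% of genes, and 1.00 for rbPDI, in a test that called 0.0948%. Because the bESC side of each interaction rests on between 1 and 10 counts in a group, these tests show neither that the responses differed nor that they were alike.

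The level itself differed between the cell types in every treatment. With VC, the pooled normalized AGR2 count in bEECs was 53851 times that in bESCs (counting interval from 9665 to 2127060), with rbCAPG it was 63098 times (28989 to 171939) and with rbPDI it was 25666 times (13956 to 53524). These ratios rest on 1, 6 and 10 bESC counts, so their order was not resolved. AGR2 was called as higher in VC bEECs by edgeR, with an adjusted p-value of 2.96e-08, in a comparison that called 38.5% of genes. From high to low, the order of the group means was bEECs with rbCAPG, bEECs with rbPDI, bEECs with VC, and then bESCs with rbPDI, rbCAPG and VC. AGR2 was found through tables for rbCAPG, so the place of rbCAPG over rbPDI in bEECs is not free of that choice. The bEEC groups with rbCAPG and rbPDI did not differ beyond the spread between samples, nor did neighbours among the 3 bESC groups. Between bEECs with rbPDI and VC, AGR2 was called in the fits named above. In the filtered edgeR fit to all 18 samples without the block it missed the call, with an adjusted p-value of 0.0728 at 5.58-fold.

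Within a device, the AGR2 share of the bESC library was set beside the AGR2 share of the bEEC library of the same animal and treatment. It was between 0% and 0.0294% of the bEEC share over the 9 devices, with the highest value in the rbPDI device of animal 1 (counting interval from 0.0108% to 0.0641%). Other epithelial genes were counted in bESCs at higher shares of their own bEEC level. The mean bESC level of MUC1, a mucin of the cell surface, was 0.0558% of the bEEC level with VC, 0.0665% with rbCAPG and 0.114% with rbPDI, where AGR2 gave 0.00148%, 0.00165% and 0.00782%. For OCLN, a tight junction protein, these values were 0.284%, 1.32% and 1.62%. For RBM47, an RNA-binding protein of epithelia, they fell in the other order, at 0.524%, 0.0853% and 0.0423%. FERMT1, which links integrins to the cytoskeleton in epithelial cells, was at 33.6%, 14.4% and 13.6%. AGR2 was thus the lowest of the 7 genes in this measure in each treatment. The study's tables, which gave the identifiers of all 7, also list genes that changed in bESCs. Such genes have to be counted in bESCs, so the rank describes these 7 genes alone. Whether AGR2 counts in bESC libraries came from bESCs or from bEECs of the same device was not tested.

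**Figure D3:**
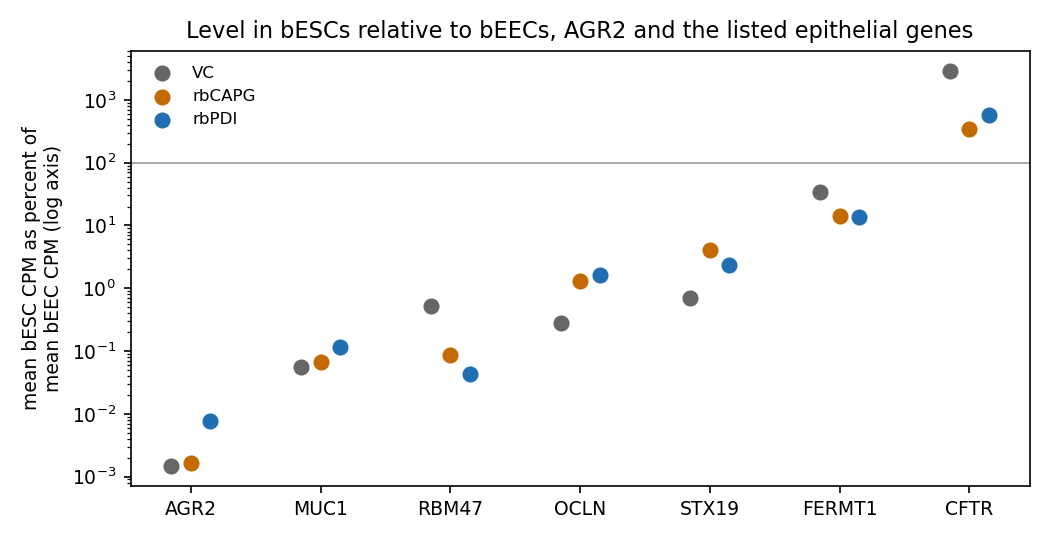
Mean normalized level in bESCs as a percent of the mean level in bEECs (y axis, log scale), for AGR2 and the 6 epithelial markers with an identifier (x axis), with a point for each treatment (n = 3 samples per cell type) and a line at equal levels. AGR2 lies lowest, between 0.00148% and 0.00782%, and CFTR lies above the line.

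The summed levels of markers of other cell types also differed between the bEEC groups, with overlap between VC and rbPDI for the stromal list. The summed level of the 6 stromal markers in bEECs was 10.2 to 19.6 CPM with VC, 25.0 to 63.7 CPM with rbCAPG and 18.5 to 50.4 CPM with rbPDI, and 0 of them were called by edgeR without the block. With the block, 6 of 6 were called with rbCAPG and 3 of 6 with rbPDI, where 2.19% and 2.96% of all tested genes were called. In the bESC libraries themselves, where these markers are high, AGR2 did not exceed 0.522 CPM. The 2 leucocyte markers with an identifier, AIF1 and CXCR4, summed to between 13.4 and 32.1 CPM with VC, 61.8 and 104 CPM with rbCAPG and 48.1 and 109 CPM with rbPDI. Neither was called without the block, and both were called with it for each protein. The 2 endothelial markers, TEK and SELP, summed to between 1.53 and 3.75 CPM with VC, 11.9 and 15.9 CPM with rbCAPG and 5.07 and 37.4 CPM with rbPDI. In VC bESCs the same 2 markers summed to between 116 and 214 CPM, higher than in bEECs and almost all from SELP. Of these 2, 0 were called with rbCAPG and 1 with rbPDI without the block, and 1 and 2 with it. The markers read here have identifiers because the study's tables of genes from these samples hold them. Their sums and calls in bEECs therefore cannot be read as a result about these cell types. The part of these cell types in the level of AGR2 was not tested, and the other markers on these lists, PTPRC and PECAM1 among them, were not analysed here.

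AGR2 works in a pathway of protein folding and mucus secretion, and the genes of that pathway were looked up in the same way. Of 21 PDI family genes, AGR2 was the 1 with an identifier in the study's tables for rbCAPG. P4HB, which encodes PDI, and the near relative AGR3 were therefore not analysed here. None of 28 chaperones and unfolded protein response genes and none of 7 partners and receptors of AGR2 had an identifier. Of 23 genes for mucins and mucus secretion, 3 had one, namely MUC1, GALNT7 and CFTR. In bEECs 0 of these 3 were called by edgeR with either protein. With the animal as a block, 2 were called with rbCAPG and 1 with rbPDI, where 2.19% and 2.96% of all tested genes were called. CFTR held 3 counts in each VC bEEC library. Their median log2 fold change was 1.13 with rbCAPG and 1.16 with rbPDI, where the medians over all tested genes were 0.02 and −0.01. MUC1 had means of 318 ± 110 CPM with VC, 698 ± 41.5 CPM with rbCAPG and 711 ± 89.3 CPM with rbPDI (SD, n = 3). In the fit with the animal as a block, MUC1 was called as higher by edgeR with adjusted p-values of 0.0444 and 0.0323. Without the block its adjusted p-values by edgeR were 0.160 and 0.105. GALNT7, an enzyme of mucin-type glycosylation, had means of 52.4, 106 and 102 CPM with VC, rbCAPG and rbPDI. The identifiers of all these genes came from the same tables as that of AGR2, so their direction and calls are not independent evidence either.

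Of 8 genes of secretion and glycosylation, 0 were called with rbCAPG and 1 with rbPDI in bEECs, namely HAS2, which makes hyaluronan, and the median log2 fold changes were 1.04 and 0.85. HAS2 was between 0 and 0.151 CPM in VC bEECs and between 0.546 and 1.07 CPM with rbPDI, so its call rests on few counts. With the animal as a block, 1 and 2 of the 8 were called. AGR2, with log2 fold changes of 2.63 and 2.48, was above these medians. Among the 6 epithelial markers, 0 were called with rbCAPG and 1 with rbPDI, namely FERMT1, with median log2 fold changes of 0.65 and 0.69, and with the block 3 and 2 were called. OCLN and RBM47 were not called with either protein, at 93.2 and 94.6 CPM with VC, 103 and 105 CPM with rbCAPG and 105 and 106 CPM with rbPDI. Of 18 inflammatory genes that NF-κB is known to induce, 13 were called with rbCAPG and 15 with rbPDI in bEECs, and 12 with each protein in bESCs, where AGR2 was near 0. With the block, 17 were called with each protein in bEECs. The median log2 fold changes of these 18 genes in bEECs were 2.92 with rbCAPG and 3.27 with rbPDI, both above those of AGR2. The shares of all tested genes called in these comparisons were 0.513% and 0.809% in bEECs (2.19% and 2.96% with the block) and 0.0948% and 0.178% in bESCs. The members of these lists have identifiers because the study's tables of genes from these samples hold them, so their counts cannot be read as a result about the lists.

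The level of AGR2 over the 9 bEEC samples was then set beside that of the 189 other genes with a symbol. These correlations are descriptions over samples that share 3 animals and 3 treatments. The 189 genes come from the study's tables of genes that changed with rbCAPG in these samples, so a high r over the treatments was favoured in advance. The 5 genes most like AGR2 in log2 CPM were CD47 (Pearson r 0.99, Spearman rho 0.85), PDXK (0.98 and 0.93), MUC1 (0.97 and 0.87), TEK (0.97 and 0.78) and CX3CL1 (0.96 and 0.77). CD47, a cell surface signal against phagocytosis, was measured at 216, 418 and 268 CPM in animals 1, 2 and 3 with VC, at 705, 736 and 558 CPM with rbCAPG and at 733, 729 and 575 CPM with rbPDI. As with AGR2, animal 2 was the highest of the VC samples and animal 3 was the lowest with each protein. The correlation of the deviations from the group means, which leaves out the treatment, was 0.98 for CD47, 0.93 for PDXK, 0.85 for CX3CL1, 0.81 for MUC1 and 0.81 for TEK over the 9 samples. The same deviations are part of the r by which the 5 genes were picked, so these values are not a separate check.

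PDXK, the kinase that activates vitamin B6, was measured at 67.2, 132 and 99.3 CPM with VC in animals 1, 2 and 3, at 225, 252 and 155 CPM with rbCAPG and at 222, 241 and 174 CPM with rbPDI. Its highest VC sample, like that of AGR2, came from animal 2. CX3CL1, a chemokine anchored in the membrane, held between 0 and 2 counts in the VC samples and between 61 and 143 counts in the exposed ones. TEK, a receptor for angiopoietins, held between 1 and 4 counts with VC and between 10 and 29 with either protein, so these patterns rest on few counts, where AGR2 had between 6722 and 108715 in the bEEC libraries. CD47 and PDXK were not called by edgeR without the block, with adjusted p-values of 0.149 and 0.205 with rbCAPG and 0.0991 and 0.152 with rbPDI, and were called with it, with adjusted p-values from 0.0104 to 0.0232.

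**Figure D4:**
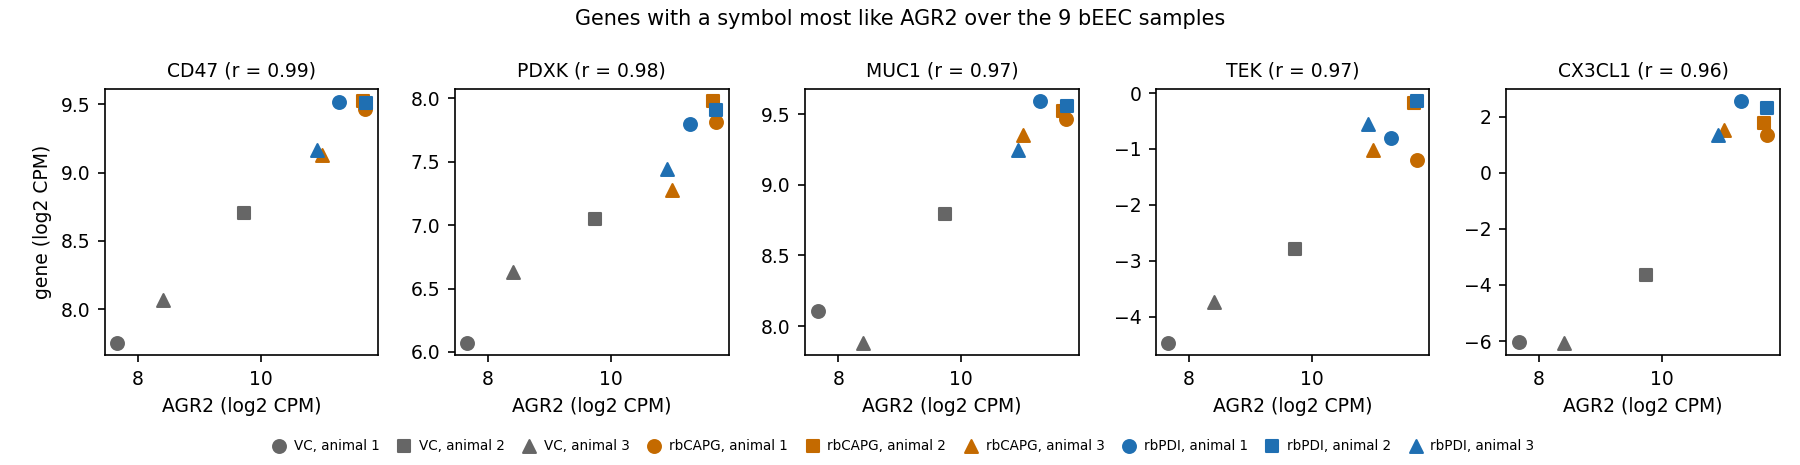
AGR2 (x axis) against each of the 5 genes whose log2 CPM was most like it (y axis, a scale for each panel), with a point for each of the 9 bEEC samples, colour for treatment and symbol for animal. The VC samples lie apart at the lower left, with animal 2 nearest to the exposed samples, and Pearson r runs from 0.96 to 0.99. The 5 genes were picked for the highest r among 189 genes from the study's own tables for rbCAPG.

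Over all 18 samples, the genes most like AGR2 by Pearson r were MUC1, HTR1E, STAP2, IL1RN and PLAU. The samples fall into separate clusters by cell type, so no pooled r is given. HTR1E, a serotonin receptor, was at 2.70 CPM in VC bEECs and held at most 1 count in any bESC library. Within the bEEC groups, the deviations of STAP2 (r −0.09) and PLAU (r −0.06) had next to no correlation with those of AGR2, while HTR1E gave 0.51 and IL1RN 0.22. STAP2, a signalling adaptor, was called with both proteins in bEECs by edgeR without the block, with adjusted p-values of 0.0397 and 0.0485 and log2 fold changes of 1.35 and 1.23. AGR2 had larger log2 fold changes than STAP2 but also a larger error, with an SE of 0.61 against 0.28 with rbCAPG.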

How the data were processed

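RNA from 18 samples, in 6 groups of 3 given by the labels, was analysed as deposited. The authors trimmed reads with Trimmomatic, aligned them with STAR and counted them with featureCounts on the bovine assembly and Ensembl genes named in their methods. The unit deposited is the estimated count, without normalization: the authors split a read that fitted several places or genes into fractions, and 23.3% of all values, and 5 of the 18 for AGR2, were fractional. The counting options that the authors list set no strand, so reads from overlapping genes on opposite strands cannot be told apart. In the RefSeq gene table of another assembly, used for neighbours only, no gene overlaps AGR2. The columns left unused numbered 0.

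Counts were rounded and analysed in R 4.3.3. filterByExpr left 17931 genes, which were normalized by TMM and tested in edgeR 4.0.16 by quasi-likelihood (a mean per group over all 18 samples, 12 residual degrees of freedom, Benjamini-Hochberg over all tested genes). The SE is the absolute log2 fold change divided by the square root of F. Calls needed adjusted p-values under 0.05 and log2 fold changes of more than 1 in size. DESeq2 1.42.0, the animal as a block within cell type (8 residual degrees of freedom), other filters and scalings, and each sample left out in turn were alternatives. Each device was seeded from 1 animal, which pairs its bEEC and bESC samples. The labels number biological replicates and name no animal, so equal numbers were taken as 1 animal across treatments. The study used paired tests between treatments for the medium of its devices. Deviations of same-animal samples from group means correlated at 0.43 on average in bEECs (0.30 to 0.54, 9 pairs) and 0.36 in bESCs (0.17 to 0.59). Counting intervals are exact (Clopper-Pearson, or Poisson for pooled counts).

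AGR2, the gene lists and the tests were chosen with earlier results of these data known. Genes were named if they belonged to a list of the PDI family, mucus, secretion, NF-κB or cell type genes and were called or among its 4 most abundant, or if they were among the 5 most like AGR2 over 9 or over 18 samples. Symbols came from the study's tables of genes changed with rbCAPG in bEECs and in bESCs, which hold 245 identifiers, 190 with a symbol. The study's tables for rbPDI were not used for symbols. No sequence of AGR2 was used here.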

Additional observations from a re-analysis of the deposited data

How the results depend on the processing

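Of 219 alternative values over the AGR2 comparisons, 188 kept their direction and their side of the threshold, 14 passed it newly, 13 no longer passed it and 4 changed sign. With rbCAPG and rbPDI in bEECs, AGR2 was called under DESeq2 (log2 fold changes 2.64 and 2.50), with no filter on low counts (2.61 and 2.47, edgeR adjusted p-values 0.0148 and 0.0159), in fits to 1 cell type (2.62 and 2.51, 0.0481 and 0.0394), with the replicate block within cell type (2.80 and 2.61), with a replicate block shared by the cell types (2.71 and 2.55, 0.0160 and 0.0171) and under DESeq2 with the replicate block (2.80 and 2.62, 3.36e-09 and 3.27e-08). It was not called with DESeq2's size factors in edgeR, library sizes only, at least 10 counts in 9 samples, the 6 compared samples only, unrounded values or when tested against a minimum log2 change of 1 (adjusted p-values 0.435 and 0.424). The mean of both proteins was not called in that last test (2.55, 0.256). With the replicate block, as an alternative chosen after seeing the data, arrangements within animals gave a permutation difference of 2.78 with an exact p = 0.0741. The replicate block changed no other AGR2 call. The cause of these changes was not tested.

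With each sample of the compared groups left out, the log2 fold change in bEECs ran from 2.27 to 3.41 with rbCAPG (edgeR adjusted p-values 0.0329 to 0.384), from 2.12 to 3.25 with rbPDI (0.0358 to 0.343), from −0.38 to 0.02 between the proteins, and from 2.20 to 3.33 for their mean. The permutation difference ran from 2.31 to 3.34 (exact p from 0.0357 to 0.0714, the latter on leaving out a VC sample, where fewer arrangements exist). Fitted values ran from −0.042 to 2.16 between the proteins in bESCs and from −1.12 to 1.38 and −2.55 to 0.48 for the interactions with rbCAPG and rbPDI. The sign changed without the third rbPDI bEEC sample (0.023), without the first rbPDI bESC sample (−0.042 between the proteins, 0.48 in the interaction) and without the second VC bESC sample (−1.12). These fitted values rest on few bESC counts, depend on the prior count and bound nothing. Fits to 1 cell type or to the compared samples gave no bESC value, since AGR2 was removed there by the filter. With 0 to 6 AGR2 counts in a bESC library, a lack of expression and a lack of depth were not separated.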
